A study of Mus musculus with 2 samples.

Results

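All 10 matricellular genes had a higher share of the reads in the stretched skin than in the control skin, and 7 of them differed by 2-fold or more. The members are the genes of matricellular and provisional matrix proteins Tnc, Tnn, Thbs1, Thbs2, Thbs4, Postn, Sparc, Cthrc1, Fn1 and Spp1, taken by name from the table of counts, which lists 24421 gene symbols. The members were chosen with earlier results of these data known, so setting them against all genes or against related genes is descriptive only. Both groups were whole-layer back skin of wild type C57BL6/J mice at day 5. One was held under 33% strain with a device glued to the back, and the other carried no strain. Per the study's methods these were young adult females with hair in telogen, and the strain was raised a little each day. Each group was 1 library, and how many animals gave the RNA of a library is not given in the sources used here. Without replicates no p-value can be given, and all values compare these libraries and not the conditions.

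Matricellular proteins are secreted into the extracellular matrix but serve less as its scaffold than as signals to cells, through integrins, syndecans and other surface receptors. Most of them are scarce in resting adult tissue and are known for their induction in development, wound repair and mechanically loaded tissue. Fibronectin, with fibrin, forms the provisional matrix of a wound, on which fibroblasts and macrophages move before collagen replaces it. In skin the main producers are dermal fibroblasts, with contributions from macrophages, muscle, tendon-like cells and the hair follicle.

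The control library held 14152379 counts and the stretched library 11648655. Levels within a gene are given as CPM, the count scaled to the total of the library, and levels between genes as FPKM, which also divides by the exon length in kilobases. A fold change is the ratio of CPM in stretched to control skin, with an exact 95% Clopper-Pearson interval that covers counting error only. For the calls 1 was added to each FPKM value, which the study's methods do not mention. A gene was called when the ratio of these values was at least 2 or at most 0.5 and their product (EV, the expression value) was above 10. This ratio lies nearer to 1 than the fold change of CPM for genes with low FPKM. Without the added value 9675 genes passed the filter, and the same 7 members were called. Among the 10901 genes that passed this filter, 2.61% were called higher and 2.43% lower. Of the members 9 passed it, 7 were called higher and none lower, and the exception was Tnn with an EV of 5.89. The median log2 fold change of the 10 members was 1.28, against -0.12 for the 16255 genes with more than 3 counts in at least 1 library. For each of the 10 members the interval lay above 0 throughout, as it did for 18.1% of these genes, while for 33.5% of them it lay below 0. The tissue label held for the epidermis and for the dermis, since the basal keratin gene Krt14 had 38376 control and 38380 stretched counts and the type I collagen gene Col1a1 had 168121 and 277385. Bulk skin cannot tell a change in the number of cells that express a gene from a change in the RNA of each cell.

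**Figure D1:**
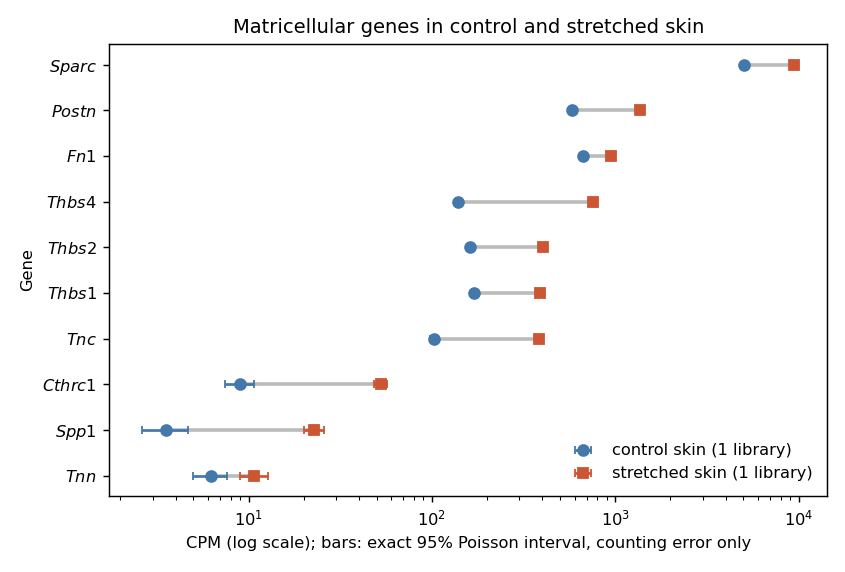
CPM of the 10 matricellular genes (horizontal axis, log scale) in the control library (circles) and the stretched library (squares), with exact 95% Poisson intervals as bars. Every gene lies higher in the stretched library, from Spp1 and Tnn at the low end to Sparc at 5048 and 9484 CPM.

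The tenascins are large oligomeric glycoproteins that loosen the attachment of cells to fibronectin. Tnc, the gene of tenascin-C, which is typical of wounds and of loaded tissue, lies on chromosome 4 of mm10 from 63959785 to 64047015. The control library held 1456 of its reads (103 CPM) and the stretched library 4497 (386 CPM). It was 3.75-fold higher in the stretched library (interval 3.54 to 3.98) and was called. Tnn, the gene of tenascin-W, best known from developing bone, lies on chromosome 1 from 160085029 to 160153580. Its 88 control and 125 stretched counts gave a ratio of 1.73 (interval 1.30 to 2.29), which was not called. The interval of Tnn reached past 2-fold, so its depth does not place it on either side of the threshold. The log2 fold change of Tnc exceeded that of Tnn by 1.12 (interval 0.72 to 1.52).

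All 3 thrombospondin genes were called higher. Thbs1 and Thbs2 encode trimers that bind CD36 and CD47, restrain the growth of blood vessels and, for thrombospondin-1, activate latent TGF-beta. Thbs4 encodes a pentamer found at the attachments of muscle and tendon. Thbs4, on chromosome 13 from 92751590 to 92794818, was counted 1973 times in the control and 8761 times in the stretched library, 5.39-fold higher (interval 5.14 to 5.67). Thbs2, on chromosome 17 from 14665500 to 14694235, had 2291 control and 4730 stretched counts, 2.51-fold higher (interval 2.39 to 2.64). Thbs1, on chromosome 2 from 118111876 to 118127133, had 2407 and 4513 counts in the same order, 2.28-fold higher (interval 2.17 to 2.39). In control skin the 3 genes had similar CPM, between 139 for Thbs4 and 170.1 for Thbs1. In stretched skin Thbs4 reached 752 CPM, while Thbs1 and Thbs2 lay at 387 and 406 CPM.

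A further 3 members were grouped as genes of collagen-related proteins. Sparc, also called osteonectin, binds collagen and assists its passage from the cell to the fibril. The gene lies on chromosome 11 from 55394500 to 55423183 and was by far the most abundant member, with 71444 control and 110476 stretched counts. Its ratio of 1.88 (interval 1.86 to 1.90) stayed just below the threshold, and the counting interval did not reach 2. With the TMM factors of edgeR, the median of ratios of DESeq2 or the upper quartile Sparc was called, which made 8 members. Postn, the gene of periostin, which brings collagen together with the enzymes that crosslink it, lies on chromosome 3 from 54361109 to 54391037. The control library held 8261 counts of Postn and the stretched library 15913, 2.34-fold higher (interval 2.28 to 2.40). Cthrc1 encodes a secreted protein with a collagen repeat that is known from activated fibroblasts and injured arteries. It lies on chromosome 15 from 39076932 to 39087121 and had 127 control and 614 stretched counts, 5.87-fold higher (interval 4.84 to 7.17).

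Fibronectin and osteopontin are adhesive glycoproteins that integrins bind through an RGD motif. Spp1, the gene of osteopontin, a ligand of CD44 and integrins that activated macrophages and bone cells secrete, lies on chromosome 5 from 104435118 to 104441050. Only 50 of its reads (3.53 CPM) were in the control library, against 265 (22.7 CPM) in the stretched library. Its ratio of 6.44 was the largest of the 10, with the widest interval of the called members (4.74 to 8.90). This place depends on the scale, since with 1 CPM added to both values Spp1 was at 2.39 on the log2 scale, below Cthrc1 (2.43) and Thbs4 (2.42). The exons of Spp1 share 18.8% of their bases with the annotated gene Gm42793, which overlaps it on the same strand and was not found in the table, and 8.43% of its 76-base stretches occur in another gene. For the other members no such stretch was shared, and at most 3.42% of the exon bases (Thbs1) lay in the exons of another gene. Fn1, the gene of fibronectin, lies on chromosome 1 from 71585520 to 71653200 and had the smallest ratio. With 9473 control and 11013 stretched counts, the ratio of Fn1 was 1.41 (interval 1.37 to 1.45). Fn1 was not called in any of the settings tried.

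**Figure D2:**
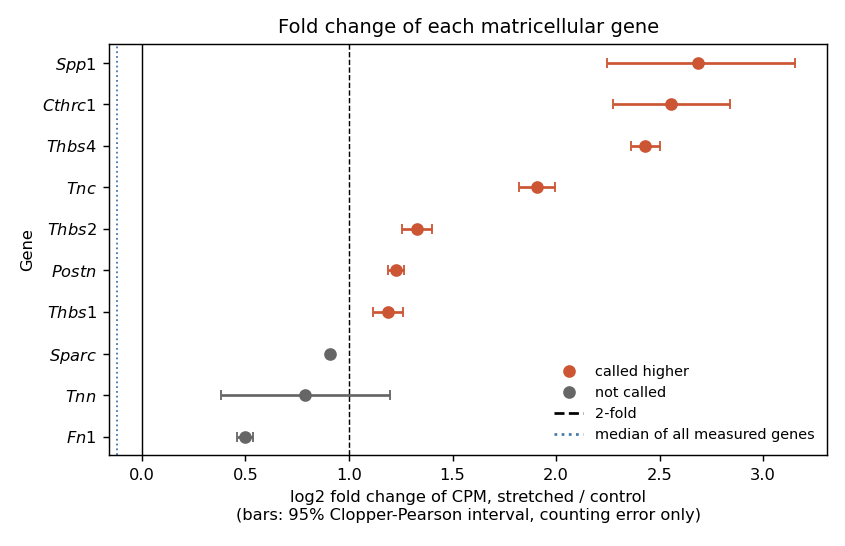
Log2 fold change of CPM in stretched against control skin for each matricellular gene, with 95% Clopper-Pearson intervals as bars. The 7 called genes lie right of the dashed 2-fold line, Sparc lies just left of it, and the median of all measured genes (dotted) is -0.12.

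The fold changes fell into an ordered series, and 6 of the 45 pairs of members could not be told apart at this depth. These pairs were Spp1 with Cthrc1, Spp1 with Thbs4, Cthrc1 with Thbs4, Postn with Thbs1, Sparc with Tnn, and Tnn with Fn1. The difference of log2 fold change between Spp1 and Cthrc1 was 0.13 with an interval from -0.38 to 0.65, which holds a difference of either sign. Thbs4 exceeded Tnc by 0.52 (interval 0.41 to 0.63), Tnc exceeded Thbs2 by 0.58 (interval 0.47 to 0.69), and Thbs1 exceeded Sparc by 0.28 (interval 0.21 to 0.35). Ranked among all 16255 genes from the highest fold change down, Spp1 was number 72, Cthrc1 85, Thbs4 105 and Tnc 232. Thbs2, Postn and Thbs1 stood at 583, 711 and 740, and Sparc, Tnn and Fn1 at 1158, 1371 and 2291.

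**Figure D3:**
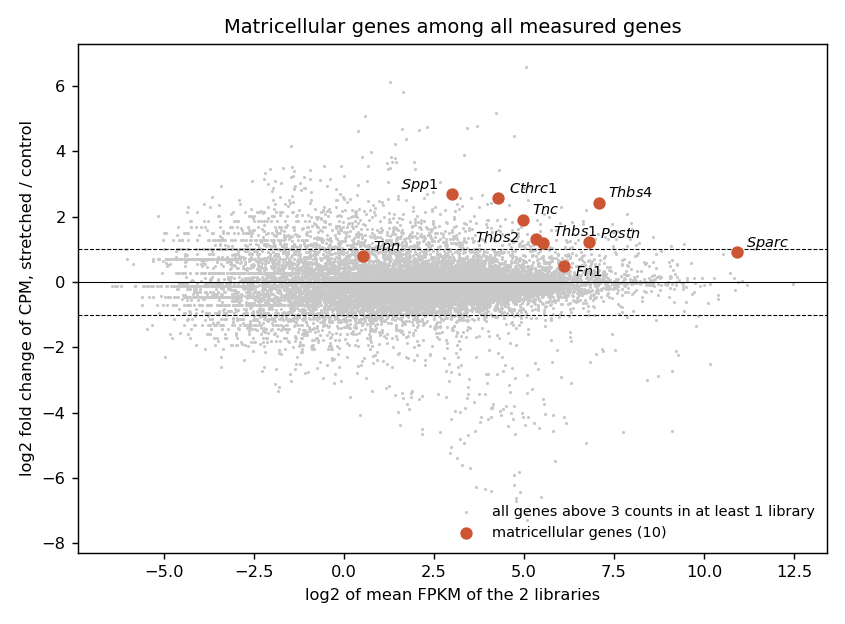
Log2 fold change of CPM in stretched against control skin (vertical axis) against the log2 of the mean FPKM (horizontal axis) for all genes with a length and more than 3 counts in at least 1 library, with the 10 matricellular genes marked. All 10 lie above 0, and they spread from the low level of Tnn to the high level of Sparc.

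The members also differed widely in level. The reads of the 10 genes made up 0.689% of all control counts and 1.38% of all stretched counts, and the log2 fold change of the sum had an interval from 0.99 to 1.01. Sparc alone held 73.2% of these reads without strain and 68.7% with it. Without Sparc the sum of the other 9 genes was 2.35-fold higher. In FPKM, Sparc was at 1333 in control skin and 2504 in stretched skin. It ranked 14 in control skin and 4 in stretched skin among the 24036 genes with a length. Behind it in control skin came Postn (67.1 FPKM), Fn1 (57.3 FPKM) and Thbs4 (42.4 FPKM), all within the 1079 genes with the highest levels. Thbs1 (28.0 FPKM), Thbs2 (23.1 FPKM) and Tnc (13.2 FPKM) held the middle of the order. Cthrc1 (5.63 FPKM), Spp1 (2.14 FPKM) and Tnn (1.07 FPKM) were the scarcest. In stretched skin Thbs4 had moved to the place behind Sparc with 229 FPKM, and Postn (157 FPKM) and Fn1 (80.9 FPKM) followed. The scarcest members in stretched skin were again Cthrc1 (33.1 FPKM), Spp1 (13.8 FPKM) and Tnn (1.84 FPKM). The counting intervals of the ratio between neighbours in these orders did not include 1 in either library. FPKM depends on the length used. With the longest coding transcript in place of all exons, Postn stood above Thbs4 in stretched skin (426 against 235 FPKM), and Thbs2 above Thbs1 (68.9 against 66.2 FPKM), while the order in control skin was unchanged.

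The promoters of 4 called members, Spp1, Thbs4, Tnc and Postn, are shown because these genes had large differences and represent the adhesive, thrombospondin, tenascin and collagen-binding members. RefSeq windows on GRCm38.p6 (the assembly of mm10) were found for 7 of the 10 members, by gene symbol, and Thbs1, Cthrc1 and Fn1 were not among them. Each sequence is the 250 bases before the start site, read 5′ to 3′ on the strand of the gene. Capitals mark matches on either strand to the TATA box (TATAAA), the CCAAT box (CCAAT), the GC box (GGGCGG), and the motifs of AP-1 (TGANTCA), TEAD (GGAATG), RUNX (TGTGGT) and the serum response CArG box. The Spp1 window is chr5:104434861-104435110 on the plus strand and the Thbs4 window is chr13:92794819-92795068 on the minus strand. The Tnc window is chr4:64047016-64047265 on the minus strand and the Postn window is chr3:54360857-54361106 on the plus strand.
Spp1: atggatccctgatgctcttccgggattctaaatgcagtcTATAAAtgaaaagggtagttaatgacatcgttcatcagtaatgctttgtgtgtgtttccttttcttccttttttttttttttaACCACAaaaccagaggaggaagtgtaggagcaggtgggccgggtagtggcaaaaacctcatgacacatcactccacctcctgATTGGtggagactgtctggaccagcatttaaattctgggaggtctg
Thbs4: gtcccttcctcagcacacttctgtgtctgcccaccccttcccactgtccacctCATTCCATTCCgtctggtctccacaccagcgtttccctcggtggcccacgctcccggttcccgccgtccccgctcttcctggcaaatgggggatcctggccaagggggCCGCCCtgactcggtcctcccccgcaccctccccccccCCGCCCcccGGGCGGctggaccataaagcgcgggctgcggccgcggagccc
Tnc: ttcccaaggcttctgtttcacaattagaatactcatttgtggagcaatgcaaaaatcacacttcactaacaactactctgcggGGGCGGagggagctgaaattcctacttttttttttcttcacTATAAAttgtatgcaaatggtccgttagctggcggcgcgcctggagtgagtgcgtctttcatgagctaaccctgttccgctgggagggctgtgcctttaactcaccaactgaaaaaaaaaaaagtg
Postn: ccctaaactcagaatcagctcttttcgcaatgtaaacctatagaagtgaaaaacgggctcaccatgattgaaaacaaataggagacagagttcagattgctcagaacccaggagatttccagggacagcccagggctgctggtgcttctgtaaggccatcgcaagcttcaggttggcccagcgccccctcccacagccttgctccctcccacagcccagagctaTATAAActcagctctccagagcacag

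These 4 windows differed in composition, and no motif was marked in all of them. The Thbs4 window was 70.8% G and C, with 3 GC boxes and a pair of overlapping TEAD matches between positions -197 and -187 from the start site, and without a TATA box. The windows of Spp1 (43.6% G and C) and Tnc (44.8%) were poorer in G and C than the median of all windows (52.4%). In Postn the letters of the TATA box lay between -26 and -21, and in Tnc and Spp1 they lay farther from the start, from -126 and from -211. Over the 7 member windows, the TATA box letters occurred in 4 (Postn, Spp1, Thbs2 and Tnc), against 12.4% of the 32851 windows of all genes. The CCAAT box occurred in 3 (33.8% of all windows), the GC box in 2 (32.7%), the TEAD motif in 2, Thbs4 and Tnn (12.6%), and the RUNX motif in 1, Spp1 (14.0%). The Sparc window, which held none of these motifs, has its start site 3103 bases from the start of the gene in GENCODE, against at most 27 bases for the other 6. The AP-1 letters (6.75% of all windows) and the CArG box (1.47%) were in none of the 7. A match describes these letters and not the binding of a factor.

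Most of the other matricellular and adhesive glycoprotein genes that could be measured were higher in the stretched library. Of 31 such genes, 24 exceeded 3 counts in 1 or both libraries, and their median log2 fold change was 0.54, against 1.28 for the members. Members and list were both chosen with earlier results of these data known, so this contrast is not independent of that choice. Among the 24 measured genes 16 had intervals above 0 and 3 below, against 18.1% and 33.5% of all measured genes. Of the 19 that passed the filter 4 were called higher and none lower (background 2.61% and 2.43%). Nov, a CCN family gene (also named Ccn3), went from 321 to 1354 counts (2.36, interval 2.18 to 2.54). Mgp, which encodes matrix Gla protein, an inhibitor of calcification, went from 374 to 1495 counts (2.28, interval 2.12 to 2.45). The other called genes were Wisp2 (1.59) and Fbln1 (1.10).

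Some relatives of the members differed less than the member set beside them. Tnxb, the tenascin of resting dermis, had 6670 control and 7300 stretched counts, and its log2 fold change was 0.41 (interval 0.36 to 0.46) against 1.91 for Tnc. Thbs3 had 1076 and 1069 counts, which is 0.27 on the log2 scale (interval 0.15 to 0.39) against 1.19 to 2.43 for the 3 thrombospondin members. Sparcl1, a relative of Sparc, was at 0.40 (interval 0.31 to 0.49) against 0.91. Tgfbi, the relative of Postn, was at 0.78 (interval 0.72 to 0.84) against 1.23. The counting intervals did not overlap between Tnxb and Tnc, between Thbs3 and any of the 3 thrombospondin members, between Sparcl1 and Sparc, or between Tgfbi and Postn. The interval of the other tenascin member, Tnn, began at 0.38 and overlapped that of Tnxb. Tnr (5 and 2 counts) and Comp (11 and 13 counts), also of these families, were too scarce to compare. Osteopontin belongs to a family of phosphoproteins of bone and teeth, and Ibsp, Mepe and Dspp of that family were listed at 0 in both libraries, while Dmp1 had 4 and 9 counts. The fibrinogen genes Fga, Fgb and Fgg, which the liver supplies to plasma, were also listed at 0 in both libraries. The YAP target genes Ctgf (0.97, interval 0.86 to 1.08) and Cyr61 (0.67, interval 0.58 to 0.77) are CCN members with established roles in mechanical signalling. Neither was called, but the interval of Ctgf included the 2-fold threshold, and its call depends on the scaling.

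**Figure D4:**
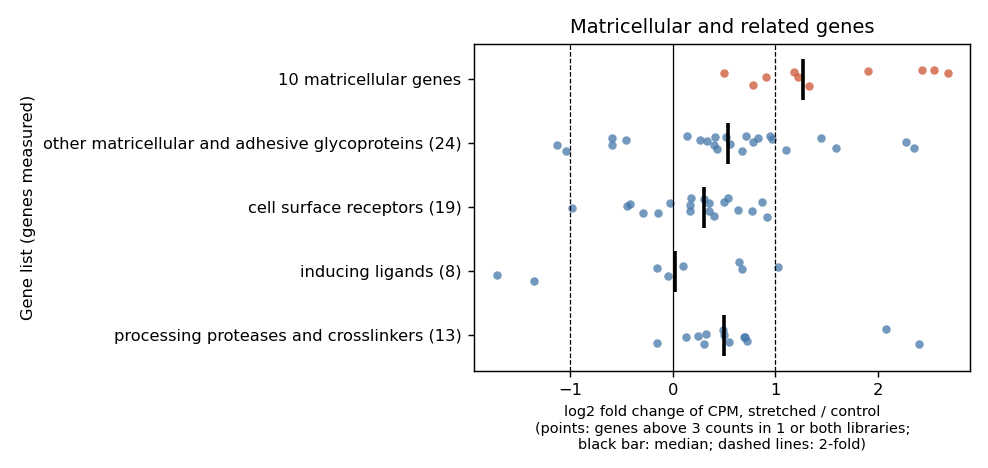
Log2 fold change of CPM in stretched against control skin for the 10 matricellular genes and for the measured genes of 4 related lists, with a bar at each median. The members have a median of 1.28 and the other lists lie between 0.03 and 0.54.

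The 19 receptor genes for these proteins had a median log2 fold change of 0.30. Of their intervals 12 lay wholly above 0 and 5 wholly below, against 18.1% and 33.5% of all measured genes. Of the 15 that passed the filter 0 were called, which is near the background of 2.61% higher and 2.43% lower. Itga5, the alpha chain of the fibronectin receptor, had 968 control and 1510 stretched counts (0.92, interval 0.80 to 1.04), beside 0.50 for its ligand gene Fn1. Itga4 was at 0.88 and Stab1, a scavenger receptor that takes up SPARC, at 0.77. Itgb8 had the lowest value, -0.99 (65 and 27 counts). The osteopontin receptor Cd44 was at 0.40 (interval 0.33 to 0.47) beside 2.69 for Spp1. Among the thrombospondin receptors Cd47 was at 0.54 (interval 0.36 to 0.71) and Cd36, which is also abundant in fat, at -0.42 (interval -0.49 to -0.35).

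Of the 10 ligands listed as inducers of these genes, 8 were measured and 7 passed the filter. None was called higher, which is near the background of 2.61%, and Wnt5a was called lower (background 2.43%). Its counts were 928 in the control and 298 in the stretched library (-1.36, interval -1.55 to -1.17). Tgfb1 (0.68, interval 0.49 to 0.87) and Tgfb3 (0.65, interval 0.48 to 0.82) had intervals above 0, while that of Tgfb2 included 0 (0.10). Pdgfc was at 1.03 (interval 0.68 to 1.38, 110 and 185 counts) in CPM and passed the filter, but was not called on FPKM with 1 added. Il13 was listed at 0 in both libraries and Il4 had 0 and 1 counts, too few for a ratio.

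The 13 genes of processing proteases and crosslinkers had a median of 0.50 on the log2 scale, and 1 of the 11 that passed the filter was called higher (background 2.61%). Mmp3, the gene of stromelysin-1, which cleaves many matrix glycoproteins, went from 460 to 1604 counts (2.08, interval 1.93 to 2.24). Mmp12, the macrophage elastase gene, had 17 and 74 counts (2.40, interval 1.63 to 3.26) and did not pass the filter. Mmp2 (0.72) and Mmp14 (0.70) were not called. F13a1, whose product crosslinks fibrin and fibronectin, was at 0.50 (interval 0.42 to 0.58), the same size as Fn1.

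Several cell type lists moved with the members, and their part in the differences was not tested. All 10 fibroblast genes passed the filter and had intervals above 0 (18.1% of all measured genes). Of them 3 were called higher (background 2.61%), and the median was 0.83. Their summed level was 42450.1 CPM in control skin and 79993.6 CPM in stretched skin. Most of this sum was Col1a1 (11879 and 23813 CPM), Col1a2 (12955 and 23676.5 CPM) and Col3a1 (14111 and 27438 CPM). Within this list Vim (1.18) and Pi16 (1.04) were called, and Mfap5 was at 0.78. The collagen genes Col3a1 (0.96) and Col1a2 (0.87) and the called gene Col1a1 (interval 0.99 to 1.01) lay near Sparc (0.91), while Dcn (0.06), Lum (0.25), Pdgfra (0.18) and Dpt (0.22) lay near 0. All 12 macrophage genes passed the filter and 9 were called higher (background 2.61%). Their median was 1.34, and their summed level was 801 CPM in control skin and 1881 CPM in stretched skin. The largest values in this list were those of Fcgr1 (2.68), Cd14 (1.78), Adgre1 (1.56) and Cd68 (1.47). Mrc1 (0.94), Cd163 (0.80) and Mertk (-0.12, interval -0.37 to 0.12) were not called.

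The markers of tissue where Thbs4 and Tnc are known to be abundant moved unevenly. Of the 7 tendon genes 4 passed the filter. Among these 2 were called higher (background 2.61%), Fmod (2.40) and Scx (1.31), and 1 lower (background 2.43%), Col11a1 (-1.45). Tnmd, the gene of the tendon protein tenomodulin, had 482 and 269 counts (-0.56, interval -0.78 to -0.34). Their summed level was 172 CPM in control skin and 189.6 CPM in stretched skin. Of the 10 muscle regeneration genes 8 passed the filter and 7 were called higher (background 2.61%), among them Myh3 (6.58), Tmem8c (4.71), Myh8 (4.47) and Chrna1 (2.23). The summed level of the 10 was 1158 and 3101 CPM. Some of these genes were listed because earlier results of these libraries had shown them. All 12 mature skeletal muscle genes passed the filter and had a median of -0.47, with 2 called higher and 4 lower (background 2.61% and 2.43%). The summed level of the mature muscle genes was 34129.9 CPM in control skin and 23141 CPM in stretched skin, of which Myh4 (-4.57) alone held 6432 and 271 CPM. Pvalb (-2.11) and Atp2a1 (-1.36) were also called lower. Myh1 (1.10) and Mb (1.09) were called higher, and Acta1 (-0.07) and Neb (-0.11) differed little.

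The lists of other cell types went in different directions, and their part in the differences was not tested either. Platelets carry much thrombospondin-1, and the summed level of the 7 platelet genes was 17.1 CPM in control and 31.8 CPM in stretched skin (log2 fold change 0.90, interval 0.66 to 1.14). Of these genes Itga2b had 127 and 269 counts (1.36, interval 1.05 to 1.68), Gp1bb had 99 and 92, Gp5 had 13 and 1 (interval -8.83 to -0.68, below 0 throughout), and Ppbp had 2 and 8, while Gp9, Treml1 and Gp6 were at 3 or fewer counts in both libraries. The smooth muscle and myofibroblast genes had a median of 0.14 with 0 of 7 called, near the background. Their summed level was 1799 CPM in control and 2722 CPM in stretched skin (0.60, interval 0.57 to 0.62). Most of this sum was Des (1085 and 1951 CPM), which is also in the muscle regeneration list. Without Des, a setting chosen after seeing the data, the smooth muscle sum was 714 and 771 CPM (0.11, interval 0.07 to 0.15) and the muscle regeneration sum 72.6 and 1150 CPM. Des (0.85), Cnn1 (0.65) and Myh11 (0.51) had intervals above 0, Acta2 was at 0.14 (interval 0.07 to 0.20) and Tagln at -0.27. The dermal papilla list had a median of -1.09, and of its 4 genes that passed the filter 1, Lef1 (-1.80), was called lower (background 2.43%). The adipocyte genes had a median of -0.77 with all 7 intervals below 0 (33.5% of all measured genes). The 8 measured keratinocyte genes had a median of 0.01 and a summed level of 15803 and 16431 CPM, and 0 of the 8 were called, again near the background.

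**Figure D5:**
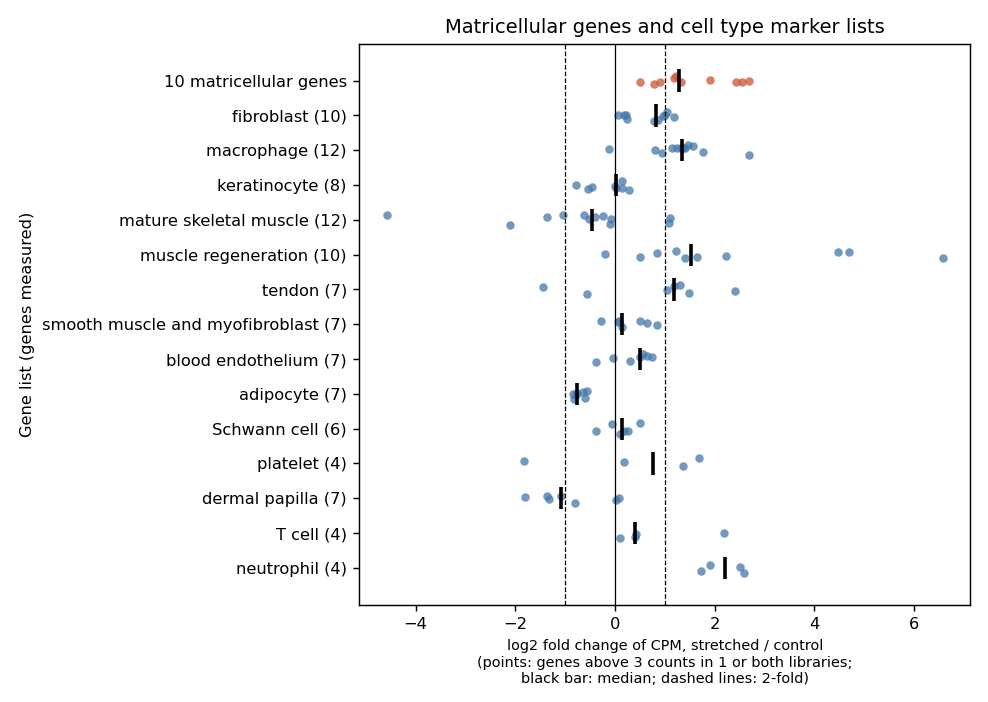
Log2 fold change of CPM in stretched against control skin for the 10 matricellular genes and for the measured genes of 14 cell type marker lists, with a bar at each median. The macrophage, muscle regeneration, tendon and neutrophil medians lie above the 2-fold line, and the adipocyte, dermal papilla and mature muscle medians lie below 0.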

How the data were processed

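The authors deposited raw read counts per gene symbol for both libraries, not normalized. Per the study's methods, single-end reads were quality filtered and aligned to mm10 with TopHat2, and the labels name TopHat2 and mm10. The counter, its annotation and its use of strand are not given in the sources used here, so reads of overlapping genes cannot be assigned with certainty.

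CPM used the total count of each library, and FPKM the union of exons in GENCODE M21, found for 98.4% of symbols (23376 by name and 660 by synonym). Counts of 3 or fewer, or 0.212 and 0.258 CPM in control and stretched skin, were set to 3 in ratios. Differences between members have normal intervals on the log scale. The calls were tested on simulated data. No test was possible with 1 library per group. All members were named in the text, and up to 4 genes with the largest change and at least 50 counts in each other list. Named beside these were relatives, receptors, defining markers and genes that were not called or went another way than their list. The members and lists were chosen with earlier results of these data known. R 4.3.3, edgeR 4.0.16, DESeq2 1.42.0, Python 3.11.15, numpy 2.4.6, pandas 2.3.3 and scipy 1.17.1 were used, with other scalings, EV filters and pseudocounts as alternatives.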

Additional observations from a re-analysis of the deposited data

How the results depend on the processing

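Scaling shifts all genes alike, by 0.10 on the log2 scale for TMM, 0.11 for the median of ratios, 0.10 for the upper quartile and 0.06 for totals that leave out the 50 most counted genes. They raised the median log2 fold change of the members from 1.28 to 1.38, 1.39, 1.38 and 1.34 in this order. Adding 1 CPM to both levels gave 1.27, and in settings chosen after seeing the data it was 1.33 without Sparc and 1.23 without Thbs4. The number of members called higher was 8 with the first 3 scalings, through Sparc, and 6 with EV above 100, which left out Spp1. It was 7 in the other 4 settings. Over all genes 285 were called higher and 265 lower, against 343 and 220 with TMM, 348 and 219 with the median of ratios, 341 and 220 with the upper quartile, 313 and 230 without the 50 most counted genes, 454 and 442 with CPM in place of FPKM and 137 and 129 with EV above 100. Of 50 recomputed values of single members 24 moved by more than their counting interval. These settings raise all genes alike or draw a value towards 0, so they could not change the sign of a member. No paired analysis was possible because each group holds a single library, which also leaves nothing to omit in turn. Depth limits Tnn, Spp1 and Cthrc1 most.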

Other observations

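The genes next to the members on the chromosomes were looked at as well. The nearest protein-coding gene with a row in the table was taken on each side of every member, which gave 20 genes, and 17 of them exceeded 3 counts in 1 or both libraries. Of the 13 that passed the filter 0 were called, and with background shares of 2.61% higher and 2.43% lower this count says nothing particular about the neighbours. Their median log2 fold change was -0.07, with 3 counting intervals wholly above 0 and 8 wholly below (18.1% and 33.5% of all measured genes). The neighbours whose interval lay above 0 were Smoc2 beside Thbs2 (0.71, interval 0.63 to 0.80), Pkd2 beside Spp1 (0.26, interval 0.14 to 0.39) and 4930523C07Rik beside Tnn (0.21, interval 0.03 to 0.39). Smoc2 encodes a matricellular relative of SPARC and is also in the list of related genes. Fzd6, the neighbour of Cthrc1, was at -0.69 (interval -0.84 to -0.55) beside 2.55 for Cthrc1, and Serinc5, the neighbour of Thbs4, was at -0.59 (interval -0.71 to -0.48) beside 2.43 for Thbs4. Atic, which ends 5889 bases from Fn1, was at -0.07 with an interval that included 0.

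The median of the 7 blood endothelial genes was 0.50 on the log2 scale with none called, and the 6 Schwann cell genes had a median of 0.14 with none called. The 4 measured neutrophil genes had a median of 2.21, and the 3 that passed the filter were called higher (background 2.61%). With the background shares above, 0 calls among 7 and among 6 genes say nothing particular about the endothelial and Schwann cell genes. Of the 4 measured T cell genes, none passed the filter.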
